A study of Homo sapiens with 54 samples.

Results

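The ERBB receptors and the ligands that bind them were described across 54 LNCaP xenograft tumours. The 10 genes were taken by symbol from the deposited expression table: the 4 receptors EGFR, ERBB2, ERBB3 and ERBB4, and the 6 ligands NRG1, NRG4, AREG, EREG, BTC and TGFA. They were 10 of 60642 gene symbols in the table. The rule names symbols and no measured value, but it was set with earlier results of these data known. Of the 10 genes, 6 reached 1 TPM (a relative abundance, corrected for transcript length, that sums to 1000000 over all transcripts of a library) in at least 8 tumours and were tested among 17131 genes. These were EGFR, ERBB2, ERBB3, NRG4, BTC and TGFA. The other 4 (ERBB4, NRG1, AREG and EREG) were too low and are described by their levels.

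The ERBB receptors are tyrosine kinases of the cell surface that signal as pairs. TGFA and AREG bind EGFR, BTC and EREG bind EGFR and ERBB4, and the neuregulins bind ERBB3 or ERBB4. ERBB2 has no known ligand and acts as the partner of the others, and ERBB3 has little kinase activity of its own and passes the signal to PI3-kinase. In prostate epithelium these receptors feed the RAS-ERK and PI3-kinase arms.

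LNCaP cells, from a human prostate cancer that responds to androgen and here of clone FGC, were grown under the skin of male NOD-SCID mice, which lack T and B cells. All mice had surgery at a tumour volume of about 200 mm3. It was a mock operation in the PRE-CX group (9 tumours, collected at 1000 mm3) and castration in the other 4 groups. POST-CX tumours (n = 8) were taken 1 week after castration, at the lowest serum prostate-specific antigen (PSA). CRPC tumours (n = 10) were taken when PSA had returned or the tumour had reached 1000 mm3. In the remaining mice enzalutamide, an antiandrogen drug, was given at 10 mg/kg by mouth on 5 days a week once PSA rose after castration. ENZS tumours (n = 12) were taken at the second PSA low and ENZR tumours (n = 15) at PSA return or at 1000 mm3 on the drug. Each tumour came from its own mouse, mouse numbers serve as names, and 1 cell line stands behind every tumour, so the groups differ by castration, drug, time and, in part, tumour size together.

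The human genes of a tumour summed to between 12.1% and 97.5% of 1000000 TPM, with a median of 89.9%, because mouse genes had been removed after quantification. The 2 lowest were ENZR mouse 87 at 12.1% and POST-CX mouse 91 at 27.9%, and in these tumours every human gene was lowered by 1 factor. Levels are therefore given as deposited and, where this changed a result, as rescaled TPM, in which the human genes of each tumour sum to 1000000. Rescaling moved the median difference of all tested genes from PRE-CX from -0.05 to 0.16 on the log2 scale in POST-CX and from 0.07 to 0.25 in ENZR, but by little in CRPC (0.11 to 0.08) and ENZS (0.26 to 0.29). The luminal markers HOXB13 and KRT8 had a median of at least 1 TPM in every group. Only LNCaP cells were injected and mouse genes had been removed from the values. Human marker genes therefore do not measure the leukocytes, vessels or fibroblasts of the mouse, and low values do not show that these were absent. Of the human genes used as markers of other cells, PTPRC of leukocytes reached 0.19 TPM at most, PECAM1 of endothelium 0.06, PDGFRA of fibroblasts 0.11 and TP63 of basal epithelium 0.05. Other fibroblast markers were higher: COL1A1 had a median of 6.3 TPM and reached 26.1, and COL3A1 had a median of 5.76 TPM and reached 58.9. The summed level of 8 fibroblast and smooth muscle markers had medians of 9.56 TPM in PRE-CX, 16.9 in POST-CX, 25.5 in CRPC, 38.4 in ENZS and 43.3 in ENZR. Its highest sum was 235 TPM, in ENZS, and 5 of the 8 markers had a median of at least 1 TPM in each of CRPC, ENZS and ENZR. The summed level of 7 blood and immune markers had medians of 1.40, 0.915, 0.665, 3.64 and 2.07 TPM in the same order of groups, with a highest sum of 11.3 TPM in ENZS. That of 5 endothelial markers had medians of 4.30, 2.83, 1.02, 1.30 and 0.98 TPM, with a highest sum of 7.32 TPM in PRE-CX, and that of 4 basal markers had medians of 1.44, 0.50, 3.38, 1.56 and 0.48 TPM, with a highest sum of 9.50 TPM in ENZR. The part of these markers in the differences below was not tested. In such bulk libraries, fewer cells that express a gene and less of its RNA per cell cannot be told apart.

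ERBB2, the receptor without a ligand, showed the largest differences of the 3 tested receptors. As deposited, its lowest, median and highest levels were 41.3, 67.6 and 104 TPM in PRE-CX, and 51.4, 127 and 153 TPM in POST-CX. They were 65.5, 99.3 and 149 TPM in CRPC, 87.7, 158 and 262 TPM in ENZS, and 13.1, 152 and 233 TPM in ENZR. The groups overlapped, but 10 of 12 ENZS tumours and 13 of 15 ENZR tumours lay above the highest PRE-CX tumour, against 6 of 8 in POST-CX and 5 of 10 in CRPC. On log2(TPM + 1), ENZS exceeded PRE-CX by 1.33 ± 0.28 (SE; limma adjusted p = 0.000167) and ENZR by 0.94 ± 0.27 (limma adjusted p = 0.00618). The differences of POST-CX (0.75 ± 0.31, limma adjusted p = 0.184) and CRPC (0.63 ± 0.30, limma adjusted p = 0.221) did not pass the threshold of an adjusted p under 0.05 as deposited. In rescaled TPM, ERBB2 passed in all 4 groups, at 1.02 in POST-CX (limma adjusted p = 0.000371), 0.59 in CRPC (0.0297), 1.37 in ENZS (4.27e-08) and 1.19 in ENZR (4.77e-07). ENZR mouse 87, the tumour with 13.1 TPM, bore on this. Without it, the deposited differences of POST-CX and CRPC passed too, at a limma adjusted p of 0.0233 and 0.0394. The rescaled call in CRPC was lost when any 1 of 7 tumours was left out, with limma adjusted p up to 0.0800.

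The outermost RefSeq start of ERBB2 is shown because it lies beside that of a gene on the other strand. Any ERBB2 start further inside the gene was not examined. In RefSeq (GRCh38.p14, where the notes on the deposited values name GRCh38), ERBB2 lies on chromosome 17 from 39688094 to 39728658 on the plus strand, and PGAP3, which remodels the lipid anchor of surface proteins, lies from 39671122 to 39688057 on the minus strand. Their starts are separated by 36 bases, chr17:39688058-39688093, printed on the plus strand with the bases of both ETS-type motifs (CCGGAAGT, or ACTTCCGG on the other strand) in capitals:
ERBB2-PGAP3: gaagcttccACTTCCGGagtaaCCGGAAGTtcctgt
The motifs lay 27 to 20 and 14 to 7 bases before the ERBB2 start. At least 1 copy was present in 3.42% of 35116 RefSeq promoter windows of 250 bases and at least 2 copies in 0.256% of them. The 250 bases before this ERBB2 start held no exact match to the letters of a GC box, TATA box or E-box on either strand. A match of letters is a description of this window and no evidence of binding.

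**Figure D1:**
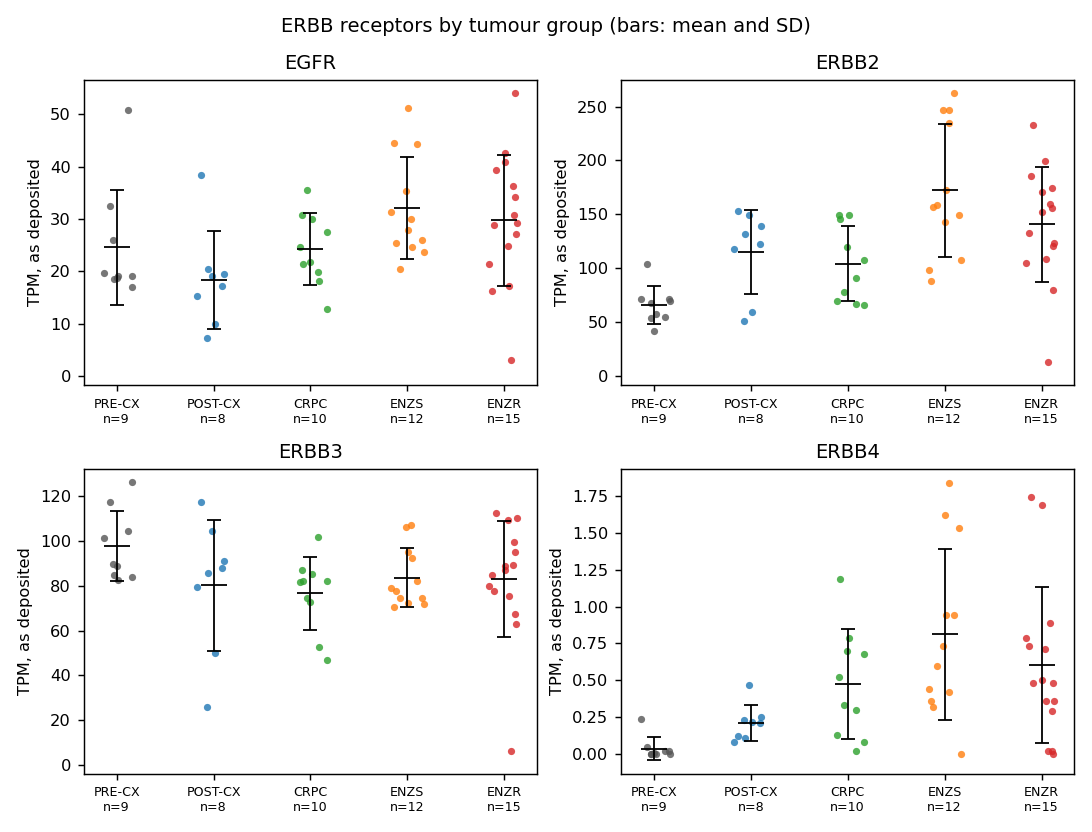
Deposited TPM (linear axes) of the 4 ERBB receptors in each tumour, by group, with bars for the mean and SD. ERBB2 had means of 65.7 TPM in PRE-CX, 115 in POST-CX, 104 in CRPC, 172 in ENZS and 141 in ENZR, ERBB3 was highest in PRE-CX at a mean of 97.7 TPM, and ERBB4 stayed below 2 TPM.

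ERBB3, the receptor of neuregulins that couples to PI3-kinase, did not rise with ERBB2. Its lowest, median and highest levels were 82.4, 89.8 and 126 TPM in PRE-CX, 25.7, 86.8 and 117 TPM in POST-CX, and 46.7, 81.9 and 102 TPM in CRPC. They were 70.4, 78.3 and 107 TPM in ENZS and 6.38, 86.8 and 112 TPM in ENZR. No tumour of the other groups lay above the PRE-CX range, and 7 of 10 CRPC, 8 of 12 ENZS, 6 of 15 ENZR and 3 of 8 POST-CX tumours lay below it. The deposited log2 differences from PRE-CX ranged from -0.39 in POST-CX to -0.22 in ENZS and none passed limma, with adjusted p of at least 0.26. Rescaled TPM called ERBB3 lower in CRPC (-0.40 ± 0.13, limma adjusted p = 0.0201), but not without mouse 35 (0.0503) or mouse 47 (0.0531) of CRPC. When each tumour was centred on the median of its tested genes, ERBB3 was called lower in all 4 groups, from -0.34 in POST-CX to -0.48 in CRPC.

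The ratio of ERBB2 to ERBB3 within a tumour does not move with the human share of the library, apart from the pseudocount. It lay above the PRE-CX range in every POST-CX, ENZS and ENZR tumour and in 8 of 10 CRPC tumours. The log2 ratio of ERBB2 to ERBB3 (each plus 1 TPM) was -0.59 ± 0.31 (SD, n = 9) in PRE-CX, where it ran from -1.09 to -0.17, so ERBB3 exceeded ERBB2 in every PRE-CX tumour. It was 0.54 ± 0.21 in the 8 tumours of POST-CX, 0.40 ± 0.50 in the 10 of CRPC, 0.96 ± 0.43 in the 12 of ENZS and 0.74 ± 0.30 in the 15 of ENZR. ERBB2 exceeded ERBB3 in all 8 POST-CX, all 12 ENZS and all 15 ENZR tumours and in 8 of 10 CRPC tumours. The exceptions in CRPC were mouse 81, the lowest at -0.59, and mouse 107 at -0.22, both within the PRE-CX range.

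Two-sided permutation tests of the mean ratio, adjusted over 8 comparisons, gave an adjusted p under 0.05 for the difference from PRE-CX in each castrated group. It was 1.14 in POST-CX (exact p = 8.23e-05, adjusted 0.000219), 0.99 in CRPC (exact p = 0.000346, adjusted 0.000693), 1.55 in ENZS (exact p = 6.80e-06, adjusted 2.72e-05) and 1.33 in ENZR (exact p = 1.53e-06, adjusted 1.22e-05). For POST-CX, ENZS and ENZR, whose tumours all lay above the PRE-CX range, the exact p was the smallest that these group sizes allow. Among the castrated groups, ENZS exceeded CRPC by 0.56 (permutation p = 0.00922, adjusted 0.0148). ENZR against CRPC (0.34, permutation p = 0.0479, adjusted 0.0639), ENZR against ENZS (-0.22, adjusted permutation p = 0.142) and CRPC against POST-CX (-0.15, adjusted exact permutation p = 0.463) did not pass. The 4 comparisons with PRE-CX share its 9 tumours and are not independent of each other.

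**Figure D2:**
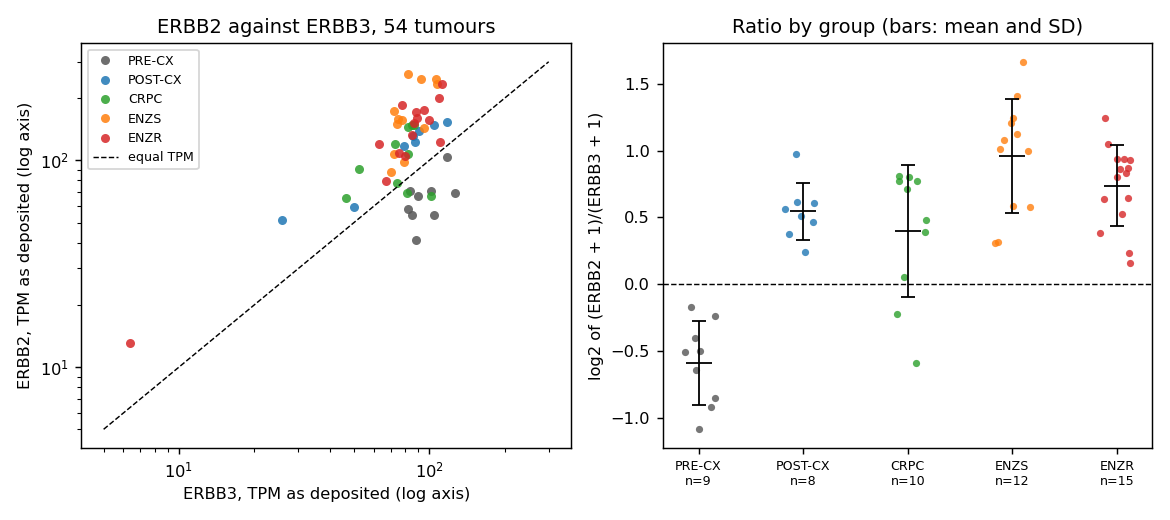
Left, ERBB2 against ERBB3 in deposited TPM (both axes logarithmic) for 54 tumours, with a dashed line at equal TPM. Right, the log2 ratio by group with the mean and SD, where all 9 PRE-CX tumours lie below 0 and all tumours of POST-CX, ENZS and ENZR lie above it.

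Expressed as a share of the summed TPM of the 4 receptors, ERBB2 made up 34.8% ± 5.31 (SD, n = 9) in PRE-CX and ERBB3 52.3% ± 4.55. ERBB2 made up 54.3% ± 3.62 in the 8 POST-CX tumours, 58.2% ± 8.13 in the 12 ENZS tumours and 55.0% ± 5.83 in the 15 ENZR tumours. In CRPC it ran from 35.6% to 58.1% with a median of 54.1%. The share of ERBB3 was 37.1% in POST-CX, 37.9% in CRPC, 29.8% in ENZS and 32.8% in ENZR, and that of EGFR was 12.9% in PRE-CX and 8.43% to 12.0% in the others. The order of ERBB2 and ERBB3 was thus exchanged, and EGFR stayed below both means in each group. The summed level of the receptors in rescaled TPM was 210 ± 36.9 in PRE-CX, 272 ± 42.0 in POST-CX, 224 ± 52.5 in CRPC, 331 ± 85.9 in ENZS and 306 ± 65.0 in ENZR.

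EGFR, the receptor of TGFA, BTC and AREG, showed smaller differences, and its groups overlapped widely. Its lowest, median and highest levels were 16.9, 19.1 and 50.9 TPM in PRE-CX, 7.21, 18.2 and 38.4 TPM in POST-CX, and 12.7, 23.2 and 35.6 TPM in CRPC. They were 20.5, 28.9 and 51.3 TPM in ENZS and 3.0, 29.2 and 54.0 TPM in ENZR. All 12 ENZS tumours lay above the PRE-CX median, but 1 tumour each of ENZS and ENZR lay above its range, which the single PRE-CX mouse 62 at 50.9 TPM had widened. As deposited no difference from PRE-CX passed limma, with values of -0.45 in POST-CX, 0.02 in CRPC, 0.41 in ENZS and 0.17 in ENZR and adjusted p of at least 0.239. Rescaled TPM called EGFR higher in ENZS (0.44 ± 0.18, limma adjusted p = 0.0323) and ENZR (0.40 ± 0.17, limma adjusted p = 0.0477). Both calls were lost when single tumours were left out, with limma adjusted p up to 0.0698 in ENZS and 0.101 in ENZR. The median rescaled difference over all tested genes was 0.29 in ENZS and 0.25 in ENZR. When each tumour was centred on the median of its tested genes, EGFR did not pass in either group. Its differences were then 0.15 in ENZS (limma adjusted p = 0.457) and 0.12 in ENZR (limma adjusted p = 0.554).

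ERBB4, a receptor of neuregulins and BTC, was low throughout and reached 1 TPM in 6 tumours (1 of CRPC, 3 of ENZS and 2 of ENZR). It was listed at 0 in 4 of 9 PRE-CX tumours, whose median was 0.010 TPM and whose highest value was 0.24 TPM. The median was 0.215 TPM in POST-CX, 0.425 in CRPC, 0.665 in ENZS and 0.48 in ENZR. Above the PRE-CX range lay 2 of 8 POST-CX, 7 of 10 CRPC, 11 of 12 ENZS and 12 of 15 ENZR tumours. In the fit without an expression filter, limma gave differences on log2(TPM + 1) of 0.74 ± 0.16 in ENZS (adjusted p = 0.000355) and 0.57 ± 0.15 in ENZR (adjusted p = 0.00615), which the pseudocount understates at such levels. CRPC (0.47, limma adjusted p = 0.118) and POST-CX (0.22, limma adjusted p = 0.70) did not pass there.

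Among the ligands, TGFA, which binds EGFR, was called higher in CRPC, ENZS and ENZR as deposited. Its lowest, median and highest levels were 2.41, 3.21 and 5.94 TPM in PRE-CX, 2.46, 5.83 and 8.44 TPM in POST-CX, and 5.02, 6.66 and 8.38 TPM in CRPC. They were 6.60, 9.48 and 10.9 TPM in ENZS and 0.90, 7.65 and 10.5 TPM in ENZR. ENZS did not overlap PRE-CX, and 8 of 10 CRPC, 12 of 15 ENZR and 4 of 8 POST-CX tumours lay above the PRE-CX range. The log2 difference was 0.81 ± 0.20 in CRPC (limma adjusted p = 0.00588), 1.20 ± 0.19 in ENZS (limma adjusted p = 1.12e-06) and 0.76 ± 0.18 in ENZR (limma adjusted p = 0.00108). In POST-CX it was 0.51 ± 0.21 (limma adjusted p = 0.175) as deposited, 0.75 ± 0.12 (limma adjusted p = 1.13e-05) in rescaled TPM, and passed as deposited without ENZR mouse 87 (limma adjusted p = 0.0218).

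BTC, betacellulin, was near 1 TPM. It reached 1 TPM in 3 of 9 PRE-CX, 8 of 8 POST-CX, 8 of 10 CRPC, 12 of 12 ENZS and 12 of 15 ENZR tumours. Its lowest, median and highest levels were 0.18, 0.67 and 2.34 TPM in PRE-CX, 1.08, 1.47 and 2.26 TPM in POST-CX, and 0.090, 1.69 and 3.78 TPM in CRPC. They were 1.84, 3.42 and 5.03 TPM in ENZS and 0.25, 1.59 and 5.98 TPM in ENZR. The highest PRE-CX value was that of mouse 53, and every POST-CX tumour lay below it, whereas 10 of 12 ENZS and 6 of 15 ENZR tumours lay above it. The log2 difference from PRE-CX was 1.31 ± 0.21 in ENZS (limma adjusted p = 1.37e-06) and 0.65 ± 0.20 in ENZR (limma adjusted p = 0.0111). In POST-CX (0.54, limma adjusted p = 0.199) and CRPC (0.59, limma adjusted p = 0.0898) it did not pass as deposited, whereas rescaled TPM gave 0.77 (limma adjusted p = 0.0146) and 0.61 (limma adjusted p = 0.0472). The deposited call in CRPC was gained when CRPC mouse 81 (limma adjusted p = 0.0175), PRE-CX mouse 53 (0.0340) or ENZR mouse 87 (0.0442) was left out, and the rescaled call was lost without any 1 of 19 tumours, with limma adjusted p up to 0.106.

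The windows of 250 bases before the starts of TGFA and BTC are shown because both ligands were called higher in ENZS and ENZR, as ERBB2 was. RefSeq windows were given for 8 of the 10 genes, not for ERBB3 and NRG1. The first of 2 windows of TGFA (GRCh38.p14, chr2:70553827-70554076, minus strand, 75.6% G and C) held 3 GC boxes (GGGCGG or its complement), in capitals, a motif present in 42.6% of all windows. Only exact letters were searched, so near matches were not counted. The window of BTC (chr4:74794524-74794773, minus strand, 62% G and C) held no exact match to the GC box, TATA box, E-box or ETS-type motif, so no base is in capitals:
TGFA: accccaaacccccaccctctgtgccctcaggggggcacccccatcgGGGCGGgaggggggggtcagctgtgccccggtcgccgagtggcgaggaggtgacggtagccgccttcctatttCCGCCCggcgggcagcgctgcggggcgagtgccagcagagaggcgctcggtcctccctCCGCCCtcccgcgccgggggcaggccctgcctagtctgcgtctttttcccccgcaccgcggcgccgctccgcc
BTC: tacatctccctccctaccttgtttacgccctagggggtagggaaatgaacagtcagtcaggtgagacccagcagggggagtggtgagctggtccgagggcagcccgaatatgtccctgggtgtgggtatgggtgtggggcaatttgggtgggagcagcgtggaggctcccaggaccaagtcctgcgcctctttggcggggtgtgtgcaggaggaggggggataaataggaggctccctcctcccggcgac
The letters of the TATA box (TATAAA), matched at any distance before AREG, EREG, NRG4 and a second EGFR start, are present in 10.7% of all windows. The E-box (CACGTG) was found before none of the 8 genes and is present in 6.34%.

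**Figure D3:**
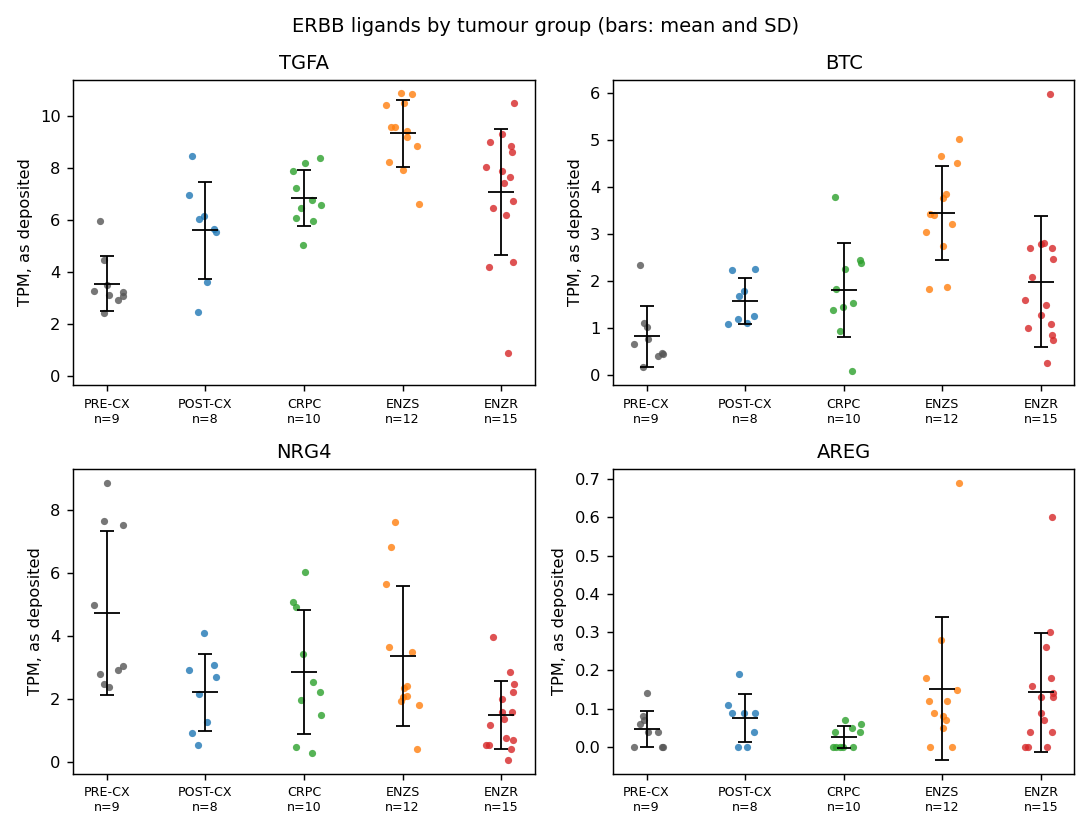
Deposited TPM (linear axes) of TGFA, BTC, NRG4 and AREG in each tumour, by group, with bars for the mean and SD. The mean of TGFA was 3.54 TPM in PRE-CX and 9.32 in ENZS, that of BTC 0.826 and 3.45, and that of NRG4 was lowest in ENZR at 1.49 TPM against 4.74 in PRE-CX.

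NRG4, a neuregulin that binds ERBB4, was the only tested ligand that was called lower in any group. Its lowest, median and highest levels were 2.39, 3.06 and 8.87 TPM in PRE-CX, 0.55, 2.42 and 4.10 TPM in POST-CX, and 0.30, 2.40 and 6.03 TPM in CRPC. They were 0.41, 2.39 and 7.61 TPM in ENZS and 0.070, 1.38 and 3.98 TPM in ENZR. PRE-CX and ENZS were both widely spread, and 12 of 15 ENZR tumours lay below it, against 6 of 12 in ENZS, 5 of 10 in CRPC and 4 of 8 in POST-CX. ENZR fell by 1.20 ± 0.27 on the log2 scale (limma adjusted p = 0.000584), and by 1.18 in rescaled TPM (limma adjusted p = 0.00025). POST-CX (-0.81, limma adjusted p = 0.145), CRPC (-0.65, limma adjusted p = 0.204) and ENZS (-0.44, limma adjusted p = 0.23) did not pass as deposited. When each tumour was centred on the median of its tested genes, NRG4 was called lower in ENZS as well as ENZR, but not in POST-CX or CRPC.

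NRG1, the neuregulin that binds ERBB3 and ERBB4, AREG and EREG did not reach 1 TPM in any tumour. NRG1 was listed at 0 in all PRE-CX and all CRPC tumours, and reached at most 0.09 TPM in POST-CX, 0.28 in ENZS and 0.29 in ENZR. AREG, amphiregulin, had medians of 0.04 TPM in PRE-CX, 0.09 in POST-CX, 0.02 in CRPC, 0.105 in ENZS and 0.13 in ENZR, with a highest value of 0.69 TPM in an ENZS tumour. EREG, epiregulin, was listed at 0 in all PRE-CX and POST-CX tumours and reached at most 0.02 TPM, in ENZS.

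Counted together, the calls from PRE-CX were read against the share of all 17131 tested genes that passed the same rule. In POST-CX, 0 of 6 tested members passed as deposited, against 4.33% of all genes, although 4 (ERBB2, NRG4, BTC and TGFA) had an unadjusted limma p under 0.05, and in rescaled TPM 3 of 6 passed, against 26.8%. In CRPC, 1 of 6 passed (TGFA), against 7.43%, and in rescaled TPM 4 of 6, against 20.4%. In ENZS, 3 of 6 passed (ERBB2, BTC and TGFA), against 38.5%, and in rescaled TPM 4 of 6, against 61.6%. In ENZR, 4 of 6 passed (ERBB2, BTC and TGFA higher, NRG4 lower), against 29.1%, and in rescaled TPM 5 of 6, against 58.8%. ERBB2, BTC and TGFA had positive differences in all 4 comparisons under each scaling tried, whether or not they passed.

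**Figure D4:**
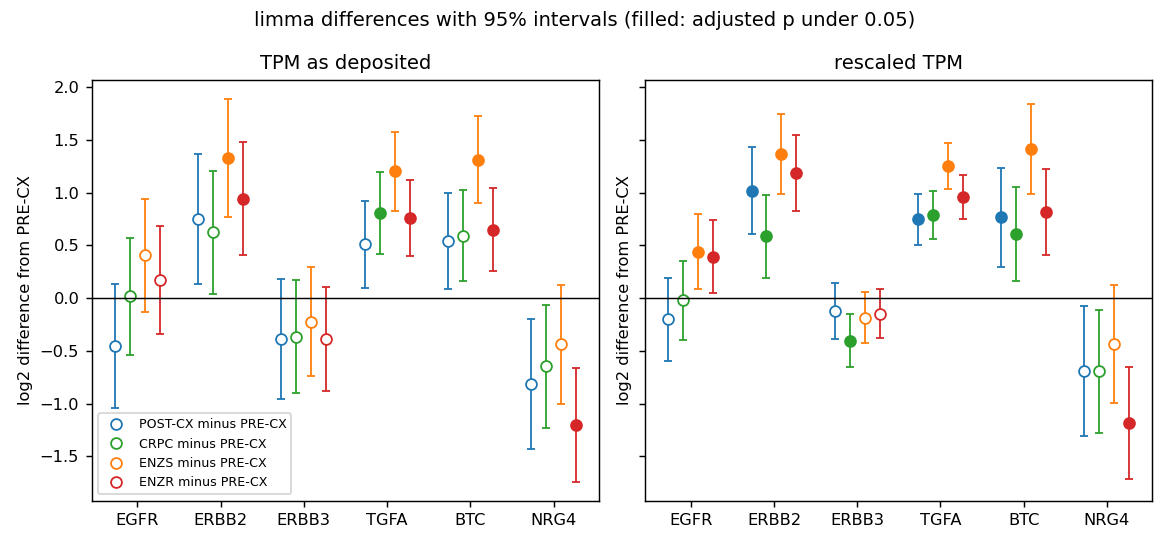
Differences from PRE-CX on log2(TPM + 1) for the 6 tested members, as deposited (left) and rescaled (right), with 95% intervals from limma and filled points for an adjusted p under 0.05. ERBB2, TGFA and BTC lie above 0 in every group, from 0.51 to 1.41, and NRG4 lies below 0, down to -1.20 in ENZR.

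The steps between castrated groups gave fewer calls. From CRPC to ENZS, BTC was higher by 0.72 ± 0.21 (limma adjusted p = 0.0178), the only call of 6 as deposited against 8.93% of all genes, and this call was lost without CRPC mouse 81 (limma adjusted p = 0.069). In rescaled TPM, 4 of 6 passed against 38.2%: ERBB2 by 0.78 (limma adjusted p = 0.00127), BTC by 0.80 (0.00294), TGFA by 0.47 (0.00082) and EGFR by 0.46 (0.0353). ERBB2 (0.70, limma adjusted p = 0.0103) and TGFA (0.40, limma adjusted p = 0.0317) also passed as deposited when ENZR mouse 87 was left out. ENZR against CRPC had 0 calls of 6 as deposited against 3.1% of all genes, with 1 member (NRG4) at an unadjusted limma p under 0.05. In rescaled TPM it had 1 call against 27.0%, ERBB2, higher by 0.60 ± 0.18 (limma adjusted p = 0.012).

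No tested member passed the threshold between a responding group and its relapsed group. From POST-CX to CRPC, 0 of 6 members passed on either scale, against 0.0% of all genes as deposited (1154 genes had an unadjusted limma p under 0.05) and 0.0467% rescaled. At an unadjusted limma p under 0.05 there were 0 members as deposited and 2 (ERBB2 and ERBB3, both lower) rescaled. From ENZS to ENZR, 0 of 6 passed on either scale, against 0.0175% of all genes as deposited and 0.0% rescaled, where 1702 genes had an unadjusted limma p under 0.05. There were 3 members (NRG4, BTC and TGFA, all lower) at an unadjusted limma p under 0.05 on both scales. Their deposited differences were -0.76 for NRG4, -0.66 for BTC and -0.44 for TGFA (limma adjusted p from 0.205 to 0.351), and that of ERBB2 was -0.39 (95% interval -0.88 to 0.10). The difference between the relapse steps under enzalutamide and after castration was tested in the same fit. It gave 0 calls of 6, against 0.187% of all genes as deposited and 0.204% rescaled, with 3 members (NRG4, BTC and TGFA) and 1 member (TGFA) at an unadjusted limma p under 0.05.

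Of 58 other genes of the pathway, 50 were tested. As deposited, 1 was higher and 3 were lower in POST-CX, 2 were higher and none lower in CRPC, 18 were higher and 1 lower in ENZS, and 12 were higher and 4 lower in ENZR. Of all tested genes, 1.66% were higher and 2.67% lower in POST-CX, 5.55% and 1.87% in CRPC, 30.3% and 8.18% in ENZS, and 17.6% and 11.5% in ENZR. In rescaled TPM, 12 of the 50 were higher and 4 lower in POST-CX, 9 and 4 in CRPC, 26 and 4 in ENZS, and 25 and 5 in ENZR. The rescaled shares of all genes were 21.1% higher and 5.73% lower in POST-CX, 14.5% and 5.94% in CRPC, 47.8% and 13.8% in ENZS, and 44.8% and 14% in ENZR. As deposited, the median difference of the list was 0.39 in ENZS and 0.16 in ENZR, beside 0.26 and 0.07 over all tested genes.

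The other ligands held the largest rise of the list. NRG3, a neuregulin that binds ERBB4, had a mean of 0.479 ± 0.536 TPM (SD, n = 9) in PRE-CX, 3.64 ± 2.23 in POST-CX, 7.37 ± 3.69 in CRPC, 10.99 ± 4.95 in ENZS and 9.32 ± 5.80 in ENZR. All tumours of POST-CX, CRPC and ENZS and 14 of 15 of ENZR lay above the PRE-CX range. Its log2 differences were 1.61 in POST-CX (limma adjusted p = 0.00254), 2.44 in CRPC (3.54e-07), 2.93 in ENZS (2.45e-10) and 2.59 in ENZR (2.66e-09). HBEGF, a ligand of EGFR and ERBB4, had means of 2.10 ± 0.748 TPM in PRE-CX and 8.25 ± 3.66 in ENZS, where all 12 tumours lay above the PRE-CX range, and it was higher by 1.53 ± 0.21 (limma adjusted p = 5.11e-08). Its mean in ENZR was 4.78 TPM. There 10 of 15 tumours lay above the PRE-CX range, against 3 of 10 in CRPC and 1 of 8 in POST-CX.

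Among the adaptors that link receptors to RAS and PI3-kinase, 4 of 6 were higher in ENZS and 3 of 6 in ENZR, and of the PI3-kinase arm 3 of 8 and 1 of 8, where 30.3% and 17.6% of all genes were higher. In rescaled TPM, 4 of 6 adaptors were higher in ENZS and 5 of 6 in ENZR, and of the PI3-kinase arm 5 of 8 and 4 of 8, beside 47.8% and 44.8% of all genes. The RAS-ERK arm held fewer rises than these shares. Of its 10 tested genes, 1 was higher and none lower in ENZS, and none was higher and 1 lower in ENZR as deposited. In rescaled TPM, 2 of the 10 were higher and 1 lower in each of ENZS and ENZR. Of the genes that record or limit ERK output, 5 of 10 were higher and 1 lower in ENZS, and 5 were higher and 2 lower in ENZR, and in rescaled TPM 6 were higher and 1 lower in ENZS and 5 higher and 2 lower in ENZR. EGR1, an immediate early gene, was higher in ENZS by 1.79 ± 0.41 (limma adjusted p = 0.000445) and in ENZR by 1.11 ± 0.40 (limma adjusted p = 0.0276). PHLDA1 was the other gene called in CRPC, higher by 1.29 ± 0.42 (limma adjusted p = 0.0474). DUSP4, a phosphatase of ERK, was lower in POST-CX, ENZS and ENZR, with differences of -1.21, -1.12 and -1.20 and limma adjusted p of 0.0333, 0.00439 and 0.00203.

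Of 9 tested inhibitors of the receptors, 1 was lower in POST-CX, 2 were higher in ENZS and 1 was higher in ENZR as deposited. Of all genes, 2.67% were lower in POST-CX, and 30.3% and 17.6% were higher in ENZS and ENZR. In rescaled TPM, 2 of the 9 were higher and 1 lower in POST-CX (21.1% and 5.73% of all genes). In CRPC, 1 was higher and 2 were lower (14.5% and 5.94%), and in ENZS and ENZR 4 were higher (47.8% and 44.8%). ERRFI1, which binds and blocks the EGFR kinase, was lower in POST-CX, at 22.6 ± 7.66 TPM (SD, n = 8) against 43.2 ± 13.95 in PRE-CX (n = 9), a log2 difference of -0.94 (limma adjusted p = 0.0218). LRIG3, of a family of surface proteins that act on ERBB receptors, was higher in ENZR by 1.45 ± 0.33 (limma adjusted p = 0.000458). Its level exceeded the PRE-CX range in 6 of 8 POST-CX, 7 of 10 CRPC, 12 of 12 ENZS and 11 of 15 ENZR tumours. The PRE-CX median was 5.28 TPM, and ENZR had a median of 13.3 TPM and a highest value of 169 TPM. SPRY1, an inhibitor of RAS-ERK signalling, had differences of -0.89 in POST-CX (limma adjusted p = 0.0473) and -0.74 in ENZR (0.0151), and RHBDF2, a partner of the ligand sheddase ADAM17, of -0.55 in ENZR (0.0214). Of the 4 tested sheddases and partners, 1 was higher in ENZS and RHBDF2 alone was called in ENZR as deposited. In rescaled TPM, 3 of the 4 were higher and 1 lower in each of ENZS and ENZR, where 47.8% and 44.8% of all genes were higher.

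The 12 genes beside ERBB2 on chromosome 17 were examined because this region is often gained as a block with ERBB2 in breast cancer. Of these, 9 were tested. In ENZS, 5 were higher (30.3% of all genes were), with log2 differences of 0.65 for GSDMB, 0.55 for IKZF3, 0.83 for ORMDL3, 0.60 for PGAP3 and 0.52 for TCAP, against 1.33 for ERBB2. MIEN1 and GRB7, downstream of ERBB2, and STARD3, upstream of it, did not pass there, at 0.39, 0.21 and 0.19. PPP1R1B was lower in CRPC (-1.65), ENZS (-1.28) and ENZR (-1.53). In ENZR, IKZF3 alone was higher as deposited (0.81), against 17.6% of all genes. In rescaled TPM, 6 of 9 were higher in ENZS and 8 of 9 in ENZR, against 47.8% and 44.8% of all genes. MIEN1 overlaps the end of ERBB2 in RefSeq, on the other strand, and the libraries kept the strand. Whether any value reflects DNA copy number was not tested, since only RNA was measured.

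Of 14 tested androgen-induced genes, 10 were lower in POST-CX, 5 in CRPC, 11 in ENZS and 12 in ENZR as deposited, against 2.67%, 1.87%, 8.18% and 11.5% of all genes, and none was higher. In rescaled TPM 12, 9, 12 and 12 were lower, against 5.73%, 5.94%, 13.8% and 14%. Within a group, ERBB2 and the mean level of these genes, both in rescaled TPM on the log2 scale, gave Pearson's r of 0.25 in PRE-CX, -0.04 in POST-CX, -0.16 in CRPC, -0.60 in ENZS and -0.17 in ENZR. In ENZS, the group with the strongest relation, the permutation p was 0.0368 (adjusted over 5 groups 0.184), Spearman's rho was -0.50 (permutation p = 0.102, adjusted 0.512) and r was -0.65 without the 2 tumours farthest from the median. In the other groups, the permutation p of r was at least 0.512 and that of rho at least 0.406, with adjusted values of at least 0.806 for r and of 1 for rho, and r without the 2 farthest tumours ran from -0.22 to 0.47. No relation passed the adjustment.

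Over all 54 tumours in rescaled TPM, ERBB2, BTC and TGFA moved together: Pearson's r was 0.73 for ERBB2 with TGFA, 0.68 for ERBB2 with BTC and 0.72 for BTC with TGFA. After each group's mean was removed, these were 0.38, 0.44 and 0.42. For ERBB2 with ERBB3, r was 0.29 over all tumours and 0.58 within groups. These values are descriptions, since the tumours share groups and a total that is set to 1000000. The genes most like ERBB2 by Pearson's r over the 54 tumours were STRADA (0.94), EPB41L1 (0.94) and ZBTB4 (0.93), and those most like ERBB3 were PCSK7 (0.78) and SMCR8 (0.76).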

How the data were processed

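RNA-seq of 54 xenograft tumours in 5 groups was analysed, each group taken from the labels. The labels give stranded mRNA libraries (poly(A) enrichment) and some 40 M read pairs for each. The submitters' processing notes name FastQC 0.11.9, Trim Galore 0.6.5, STAR 2.7.2b and RSEM 1.3.3, and the reads were aligned to human GRCh38 and mouse GRCm38 together. The deposited table holds TPM per human symbol, from which the authors had removed mouse genes. TPM hold no read depth, so precision rests on the spread between tumours.

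Genes that reached 1 TPM in 8 or more tumours were tested on log2(TPM + 1) with limma 3.58.1 (R 4.3.3, trend), 1 fit over 5 group means, Benjamini-Hochberg adjustment within each comparison and a threshold of 0.05. Fold changes of genes near 1 TPM are understated by the pseudocount. Intervals are 1.96 SE. The fit was tested on simulated data. Ratios were tested by permutation (scipy 1.17.1, Python 3.11.15), by full enumeration (exact) if either group was smaller than 10 and by 100000 resamples if not. Alternatives were rescaled or median-centred TPM, a pseudocount of 0.1, no filter, no trend, only the compared groups, and no tumours below 50% human TPM. Leaving out single tumours, and rescaling without the low tumours or the filter, were added after seeing the data.

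The members and lists were chosen with earlier results of these data known. Named genes are the 10 members, up to 3 pathway genes with the largest called rise and fall per comparison with PRE-CX, all tested neighbours of ERBB2, and the 3 genes most correlated with ERBB2 and with ERBB3. Of these genes 1, and of the motifs searched 1, are not reported here.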

Additional observations from a re-analysis of the deposited data

Results flagged for a closer look

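Sets of 8 to 10 tumours were searched for a single value far from the rest (Dixon's test), for each member and the ratio. Of 29 such sets, 8 held one. The nominal rate of about 1 in 20 holds for normal values. These TPM are not normal and some sets are mostly 0, so the count cannot be read against that rate. EGFR stood apart in PRE-CX mouse 62 at 50.88 TPM and in POST-CX mouse 99 at 38.39 TPM. PRE-CX mouse 53 was the highest of its group in ERBB2 at 104.09 TPM and in BTC at 2.34 TPM, and its log2 ratio of ERBB2 to ERBB3 was also the highest of PRE-CX, at -0.17, below every POST-CX, ENZS and ENZR tumour. ERBB4 stood apart in PRE-CX mouse 4 at 0.24 TPM and in POST-CX mouse 92 at 0.47 TPM. NRG1 stood apart in POST-CX mouse 86 at 0.09 TPM and EREG in CRPC mouse 47 at 0.01 TPM, where most tumours of the group were listed at 0.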

How the results depend on the processing

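The log2 ratio of ERBB2 to ERBB3 kept its direction and its side of the threshold in all 8 comparisons with a pseudocount of 0.1, without the 2 tumours of low human TPM and with a rank-sum permutation test. The counts of members called depended on the scaling. Against PRE-CX, POST-CX had 0 calls as deposited, 3 when rescaled, centred, rescaled without the low tumours or rescaled without the filter, and 2 without the low tumours. CRPC had 1 call as deposited, 4 when rescaled with or without the low tumours and as deposited without them, 3 when centred or when only the 2 groups were fitted, and 2 when rescaled without the filter. ENZS had 3, 4 when rescaled or without the filter, and 5 when centred, and ENZR had 4, and 5 when rescaled, centred or without the filter. ENZS against CRPC had 1 call, 4 when rescaled with or without the low tumours, 3 without the low tumours, with only the 2 groups or rescaled without the filter, and 2 when centred. ENZR against CRPC had 0 calls, 1 when rescaled, without the low tumours or rescaled without the filter, and 3 when rescaled without the low tumours. When each tumour was left out in turn, the counts ranged from 0 to 2 in POST-CX, from 1 to 3 in CRPC and from 0 to 3 for ENZS against CRPC. The cause was not tested. The difference of EGFR between CRPC and PRE-CX changed sign to -0.018 when rescaled (also without the low tumours or the filter) and to -0.10 when centred. The relation of ERBB2 to androgen-induced genes turned to an r of 0.79 in POST-CX and 0.72 in ENZR as deposited, where both share the tumour's human total, and to 0.21 in POST-CX without the low tumours. No paired analysis was possible because the labels give the groups no shared replicate numbers. The TPM hold no counts, so detection limits of the low ligands are unknown.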
